A study of Arabidopsis thaliana with 12 samples.

Results

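The genes followed here are 9 genes of Arabidopsis thaliana picked for very few reads in wild-type seedlings and clear reads in the geralt mutant, measured in 12 RNA-seq libraries. The first of these did not hold for AT2G18193, which had 61 to 480 reads in each wild-type library other than library 4. They are AT1G30170, AT5G53230, AT5G53240, AT2G24255, AT4G05380, AT2G18193, AT4G29200, AT5G66150 and AT3G28890 (RLP43), 9 of the 27655 genes in the deposited tables. They were chosen by their read counts, very low in wild type and clear in geralt, so those values are given as a description. The groups, of 3 libraries each, were geralt at 5 days, wild type at 5 days, geralt at 12 days and wild type at 12 days, all polyadenylated RNA of whole seedlings. Plants of every group were raised in vitro, on B5 medium containing sucrose, at 23 °C with 10 h of light and 14 h of dark a day, and were taken about 4 h into the light period. Geralt, which the titles also call phr2, is the T-DNA line SALK_116579, and wild type is Col (N6000). With 1 mutant line, the insertion in PHR2 and any other difference between that line and its wild type cannot be told apart.

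Some of the genes encode DUF295 proteins or relatives of them. This family has grown large in the Brassicaceae, and many of its members are predicted to enter mitochondria. AT4G05380 and AT2G18193 encode AAA-type ATPases related to OM66, a protein of the outer mitochondrial membrane that is a marker of mitochondrial stress. Genes of that response carry the mitochondrial dysfunction motif in their promoters, which the membrane-released factors ANAC013 and ANAC017 bind. RLP43 belongs to the receptor-like proteins, which have leucine-rich repeats outside the cell and no kinase domain, and AT5G66150 to the glycosyl hydrolase family 38 of alpha-mannosidases.

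The 300 bases before the annotated start of each gene were read from the RefSeq genome (TAIR10.1). The windows of 3 of the 9 genes held the mitochondrial dysfunction motif, searched on both strands as CTTG, then 5 bases of any kind, then CAAG or CACG, against 1.37% of the 27444 windows read. These 3 windows are shown 5′ to 3′ on each gene's own strand, with motif matches in capitals.
AT5G53230, chr5:21598548-21598847, plus strand: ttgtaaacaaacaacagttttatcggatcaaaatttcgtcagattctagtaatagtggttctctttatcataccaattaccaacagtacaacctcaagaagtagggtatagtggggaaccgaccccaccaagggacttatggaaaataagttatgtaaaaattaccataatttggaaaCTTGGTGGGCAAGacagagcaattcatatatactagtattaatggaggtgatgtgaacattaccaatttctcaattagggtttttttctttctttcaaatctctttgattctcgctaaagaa
AT5G53240, chr5:21601181-21601480, plus strand: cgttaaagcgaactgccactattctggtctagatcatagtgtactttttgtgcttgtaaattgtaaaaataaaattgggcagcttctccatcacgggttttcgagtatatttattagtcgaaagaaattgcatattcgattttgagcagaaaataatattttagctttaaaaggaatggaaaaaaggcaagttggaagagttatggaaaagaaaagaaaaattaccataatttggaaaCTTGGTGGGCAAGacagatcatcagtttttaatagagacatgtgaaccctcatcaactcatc
AT2G18193, chr2:7919346-7919645, minus strand: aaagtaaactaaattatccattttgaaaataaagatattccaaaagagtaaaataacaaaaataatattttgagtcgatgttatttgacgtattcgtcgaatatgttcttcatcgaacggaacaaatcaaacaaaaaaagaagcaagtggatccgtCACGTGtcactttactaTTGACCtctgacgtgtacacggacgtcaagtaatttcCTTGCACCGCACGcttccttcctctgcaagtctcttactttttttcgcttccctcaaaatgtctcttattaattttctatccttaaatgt

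The match CTTGGTGGGCAAG stood 122 bases before the start of AT5G53230 and 62 bases before that of AT5G53240. In both it lay within the same run of 40 bases, the longest run shared by any pair of the 9 windows, of which the next longest had 14 bases. It is shown with the motif in capitals.
Shared run of AT5G53230 and AT5G53240: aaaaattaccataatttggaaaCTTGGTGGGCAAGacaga
The window of AT2G18193 held CTTGCACCGCACG 90 bases before the start, with a G-box (CACGTG) and a W-box (TTGACC) further upstream. W-boxes, searched as TTGACC and TTGACT on both strands, were in 3 of the 9 windows and 32.3% of all windows. The G-box was in 2 of the 9 and 7.09% of all, the evening element (AAAATATCT) in 1 and 2.79%, and TATAAA in 3 and 52.9%. A match is a run of letters and does not show that a factor binds there.

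Total reads in genes ran from 41.57 to 115.03 M per library, and the genes' own reads were all unique gene reads, so none was shared with a near-identical copy. PHR2 (AT2G47590), the gene of the insertion, measured 39.7, 20.6 and 28.0 CPM in geralt libraries at 5 days, against 207, 89.2 and 271 CPM in wild-type libraries 2, 4 and 8. CPM here are total gene reads scaled to TMM-adjusted library size. Its 12-day levels were 30.5, 24.5 and 31.8 CPM in geralt, against 193, 207 and 203 CPM in wild type, and every geralt library lay below every wild-type one. On the log2 scale PHR2 differed by -2.68 at 5 days (SE 0.37, adjusted p = 0.0128 in edgeR) and by -2.80 at 12 days (SE 0.37, adjusted p = 0.0193 in edgeR). With the reads of library 7 subtracted from library 4, as explained next, the 5-day value was -2.80 (SE 0.30, edgeR adjusted p = 0.000756), with 137 CPM left in library 4. As deposited, the 5-day call ended without any one of libraries 1, 3, 7, 2 or 8 (adjusted p 0.0542 to 0.121), and the 12-day call without library 5 or 9 (0.0559 and 0.0601). Where along PHR2 these reads lie, relative to the insertion, cannot be seen from gene counts.

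In unique gene reads, wild-type library 4 had at least as many as geralt library 7 in every gene. Of 21871 genes with unique reads in library 7, 0 had fewer unique reads in library 4, and in total gene reads, which the CPM and tests use, 10 did. Between other ordered pairs of libraries the lowest such count was 613 genes (library 4 against 2), and among pairs without library 4 as the larger it was 2876 genes (13.6%). Library 7 held 46.4 M reads, 40.4% of library 4. Of 70 genes with 0 reads in wild-type libraries 2 and 8 and at least 10 in library 7, 28 had exactly the same count in libraries 4 and 7. In 38 of the 70, these 28 included, library 4 exceeded library 7 by at most 2 reads. How the counts came to be nested was not tested. The 5-day results of the 9 genes are therefore given with library 4 as deposited and with the reads of library 7 subtracted from it gene by gene, a treatment chosen after the counts were seen. Other 5-day values are as deposited unless the subtraction is named. The difference held 68.6 M reads, and over 18522 genes its log2 CPM correlated at 0.957 and 0.961 with wild-type libraries 2 and 8 and at 0.924 with library 7. Libraries 2 and 8 correlated at 0.980 with each other, and at 0.939 and 0.947 with library 7. The difference was thus less like libraries 2 and 8 than these were like each other. Its value with library 7 is not independent of the subtraction.

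**Figure D1:**
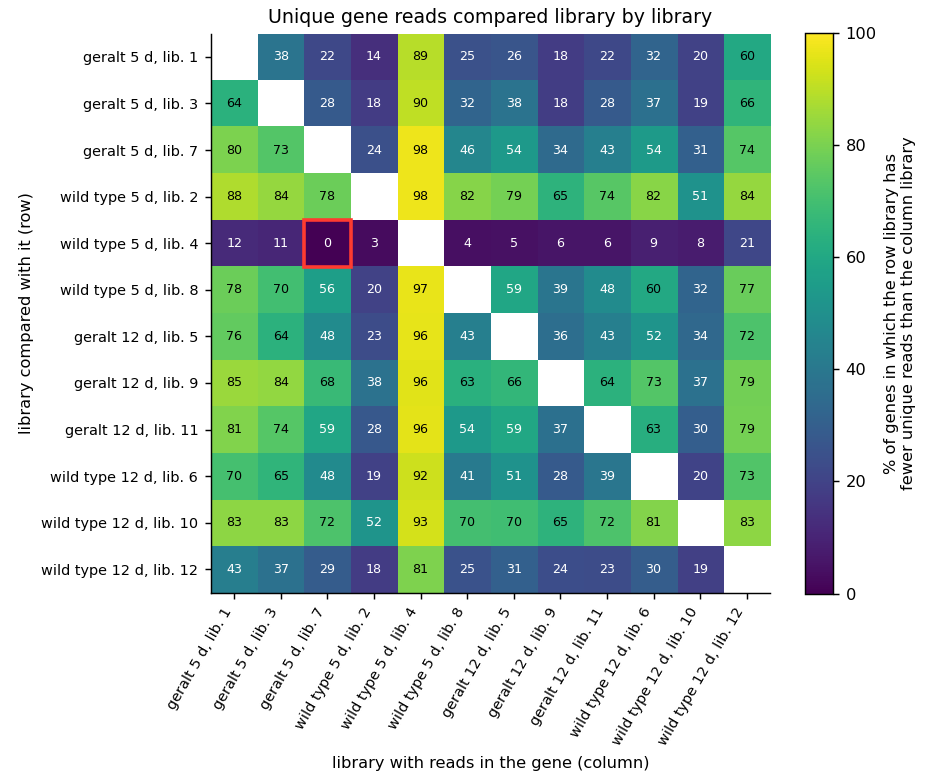
Share of genes (%) in which the library of a row had fewer unique gene reads than the library of a column, over genes with reads in the column library, for all pairs of the 12 libraries. The outlined square is wild-type library 4 against geralt library 7, with 0 genes, and the next lowest square, library 4 against library 2, stands at 2.9%.

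AT1G30170 encodes a DUF295 protein of 366 residues (chromosome 1, bases 10607888 to 10609618, minus strand, 3 exons). It had 951, 515 and 545 reads in geralt libraries at 5 days, against 2, 572 and 5 reads in wild-type libraries 2, 4 and 8. The 12-day counts were 710, 382 and 382 reads in geralt, against 8, 0 and 0 reads in wild type. Only library 4 among the 6 wild-type libraries came near the geralt libraries. A count of 0 in the wild-type libraries at 12 days allows up to 0.0777 CPM in library 10 and 0.0357 CPM in library 12. The level was 10.3 ± 2.55 CPM in geralt and 1.51 ± 2.48 CPM in wild type at 5 days, and 9.63 ± 2.79 CPM in geralt and 0.0472 ± 0.0817 CPM in wild type at 12 days (SD, n = 3 each).

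AT5G53230 and AT5G53240 lie side by side on the plus strand of chromosome 5, at bases 21598848 to 21600008 and 21601481 to 21602739, with 1472 bases between them. Each has 1 exon, and their DUF295 proteins of 358 and 361 residues were 61.2% identical. AT5G53230 had 1472, 919 and 960 reads in geralt at 5 days, against 11, 976 and 9 reads in wild type, and 762, 384 and 477 reads in geralt at 12 days, against 8, 1 and 6 reads in wild type. AT5G53240 had 1174, 916 and 724 reads in geralt at 5 days, against 8, 745 and 16 reads in wild type. At 12 days AT5G53240 had 988, 567 and 729 reads in geralt, against 11, 5 and 3 reads in wild type. In CPM the 6 geralt libraries stood above all wild-type libraries in both genes, and library 4 stood between. AT5G53230 measured 17.4 ± 2.98 CPM in geralt and 2.64 ± 4.17 CPM in wild type at 5 days, and AT5G53240 14.5 ± 1.44 CPM in geralt and 2.07 ± 3.14 CPM in wild type (SD, n = 3 each). The 12-day levels were 10.6 ± 2.78 CPM in geralt and 0.0796 ± 0.0582 CPM in wild type for AT5G53230. For AT5G53240 they were 15.0 ± 2.65 CPM in geralt and 0.120 ± 0.0798 CPM in wild type (SD, n = 3 each).

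AT2G24255 (chromosome 2, bases 10315515 to 10317353, minus strand, 3 exons) is annotated as an F-box and kelch-repeat protein, and its closest relative, AT1G64840 (40.6% identical), is a DUF295 gene. It had 531, 324 and 340 reads in geralt at 5 days, against 0, 340 and 0 reads in wild-type libraries 2, 4 and 8. Libraries 4 and 7 thus had the same count, and the 0 reads allow up to 0.0769 CPM in library 2 and 0.0578 CPM in library 8. At 12 days it had 524, 287 and 275 reads in geralt, against 0, 5 and 1 reads in wild type, or 7.10 ± 2.09 CPM in geralt and 0.0471 ± 0.0716 CPM in wild type (SD, n = 3 each).

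AT4G05380 (chromosome 4, bases 2736109 to 2738255, plus strand, 3 exons) encodes an AAA-type ATPase of 460 residues. It had 914, 865 and 709 reads in geralt at 5 days, against 11, 720 and 7 reads in wild type, and 1061, 211 and 225 reads in geralt at 12 days, against 6, 11 and 8 reads in wild type. Geralt library 5 stood apart at 12 days, with 19.1 CPM against 4.69 and 4.46 CPM in geralt libraries 9 and 11. The level was 13.0 ± 0.437 CPM in geralt and 1.97 ± 3.06 CPM in wild type at 5 days, and 9.43 ± 8.41 CPM in geralt and 0.162 ± 0.106 CPM in wild type at 12 days (SD, n = 3 each).

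AT2G18193 (chromosome 2, bases 7917413 to 7919345, minus strand, 2 exons), the second AAA-type ATPase gene, was not silent in wild type. It had 2649, 1400 and 3151 reads in geralt at 5 days, against 480, 3894 and 298 reads in wild type, so that the raw counts overlapped through library 4. Its 12-day counts were 5586, 709 and 824 reads in geralt, against 224, 64 and 61 reads in wild type. Geralt library 5 again stood apart, with 101 CPM against 15.8 and 16.3 CPM in libraries 9 and 11. In CPM the 5-day groups overlapped too, at 36.4, 21.7 and 57.8 CPM in geralt, against 12.3, 29.7 and 5.74 CPM in wild type.

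AT4G29200 (chromosome 4, bases 14398054 to 14400198, minus strand, 2 exons) is annotated as related to beta-galactosidase, and no other Arabidopsis protein passed the homology limits. It had 584, 423 and 259 reads in geralt at 5 days, against 0, 260 and 1 reads in wild type, and 269, 327 and 348 reads in geralt at 12 days, against 3, 3 and 3 reads in wild type. The 12-day level was 6.34 ± 1.3 CPM in geralt and 0.0555 ± 0.0211 CPM in wild type (SD, n = 3 each).

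AT5G66150 (chromosome 5, bases 26438839 to 26444434, minus strand, 29 exons in the tables) had 421, 357 and 247 reads in geralt at 5 days, against 36, 269 and 4 reads in wild type. The older seedlings had 351, 79 and 90 reads in geralt, against 7, 4 and 15 reads in wild type. Wild-type library 2 held more of this transcript than the other wild-type libraries besides library 4, at 0.923 CPM. The 12-day level was 3.29 ± 2.63 CPM in geralt, with library 5 at 6.33 CPM, and 0.135 ± 0.0388 CPM in wild type (SD, n = 3 each).

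RLP43 (AT3G28890, chromosome 3, bases 10895977 to 10898900, minus strand, 4 exons in the tables) had 357, 417 and 443 reads in geralt at 5 days, against 1, 443 and 4 reads in wild type. The counts of libraries 7 and 4 were again equal. In 12-day seedlings it had 230, 363 and 170 reads in geralt, against 4, 10 and 26 reads in wild type, or 5.20 ± 2.52 CPM in geralt and 0.213 ± 0.126 CPM in wild type (SD, n = 3 each).

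**Figure D2:**
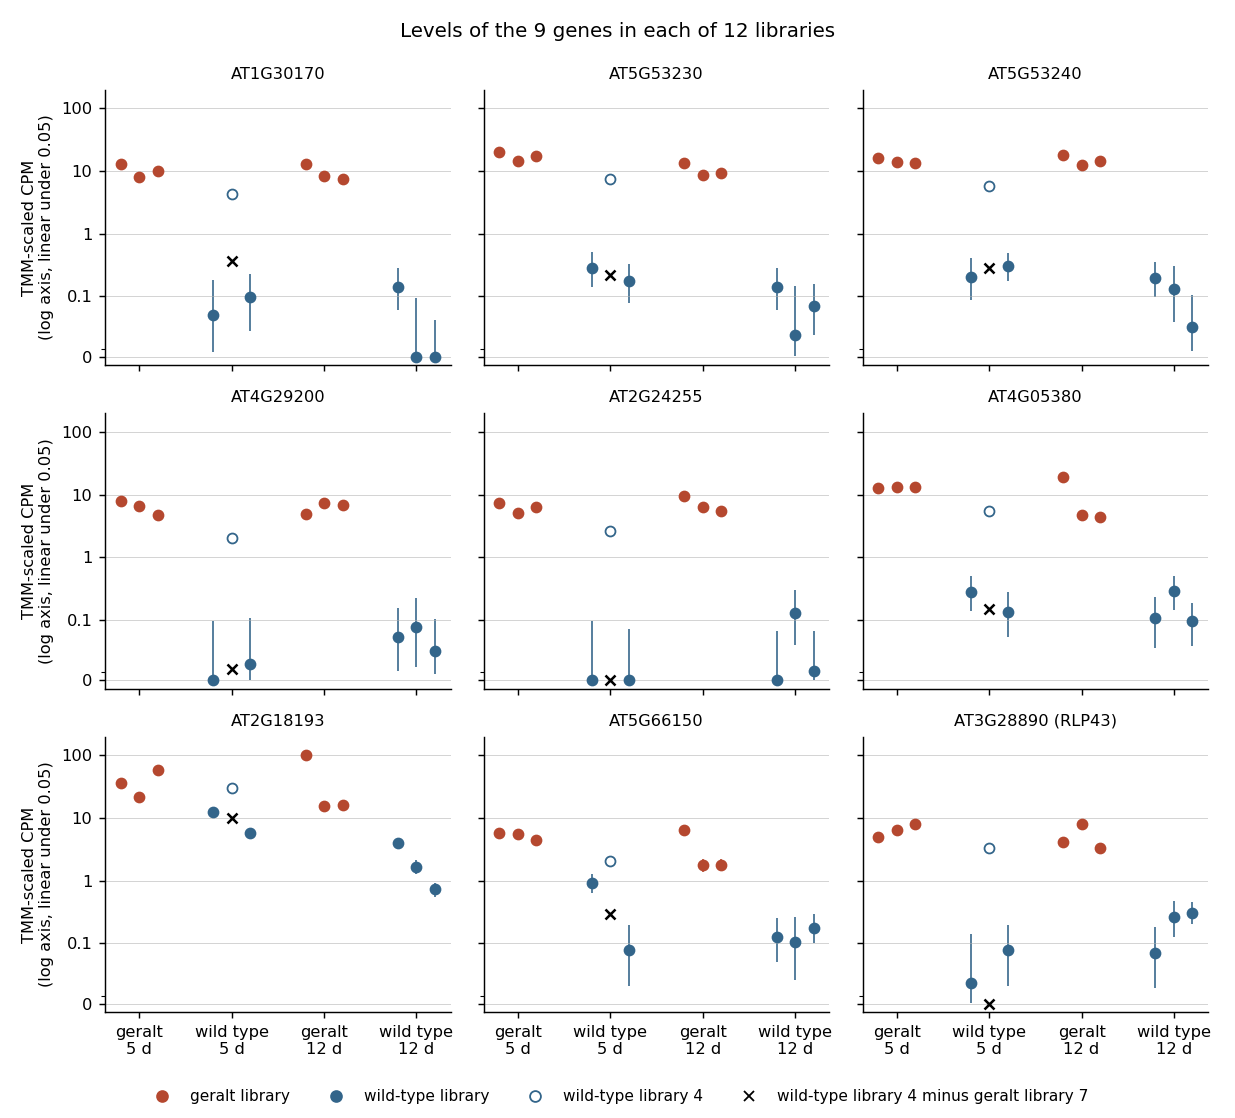
TMM-scaled CPM of the 9 genes (log axis, linear under 0.05) in each library of the 4 groups, with exact 95% counting intervals where these are wider than the points. The open circle is wild-type library 4 as deposited and the cross the same library after subtraction of geralt library 7; for AT1G30170 these are 4.37 and 0.364 CPM.

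The signal of library 4 went with library 7. Library 4 stood at 30.8% to 52.1% of the mean of the geralt libraries at 5 days for 8 genes and at 77.0% for AT2G18193. After subtraction it stood at 0% to 5.64% for the 8 genes and at 26.0% for AT2G18193. In AT2G24255 and RLP43, 0 reads were left, in AT4G29200 1 read, in AT4G05380 11, in AT5G53230 16, in AT5G53240 21, in AT5G66150 22, in AT1G30170 27 and in AT2G18193 743. Reads across exon junctions were nested likewise, with 237 of 259 for AT5G66150, 235 of 287 for AT2G18193 and 94 of 96 for AT4G05380 in libraries 7 and 4. So were the intron reads of AT4G05380, with 301 in library 7 and 306 in library 4.

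What remained of library 4 was set against wild-type libraries 2 and 8 as a ratio of reads per effective library size. For AT5G53230 the ratio was 0.985 (95% interval 0.477 to 2.00), for AT5G53240 1.08 (0.570 to 2.02) and for AT4G05380 0.752 (0.321 to 1.68). AT1G30170 kept more than these libraries, at 0.364 CPM (interval 0.240 to 0.529) against 0.0510 and 0.0958 CPM, a ratio of 4.75 (2.02 to 12.9). For AT2G18193 the ratio was 1.18 (1.06 to 1.3). As deposited, the ratio of library 4 to libraries 2 and 8 was 56.8 (27.4 to 142) for AT1G30170 and 33.9 (21.8 to 55.7) for AT5G53230. These intervals cover counting error alone.

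At 12 days, where library 4 plays no part, the ratio of summed reads, geralt over wild type, was highest for AT1G30170 and AT2G24255. It was 219 (95% interval 111 to 508) for AT1G30170, 215 (98.5 to 587) for AT2G24255, 143 (91.3 to 238) for AT5G53240 and 129 (77.7 to 230) for AT5G53230, and the intervals overlapped. AT4G29200 stood at 125 (65.4 to 273), with an interval that overlapped all of these, and AT4G05380 at 71.2 (48.0 to 110). The remaining genes were lower, with 24.2 (21.8 to 27.1) for AT2G18193, 23.8 (16.0 to 36.7) for AT5G66150 and 22.7 (16.5 to 32.0) for RLP43. Several of these ratios rested on single libraries. Without geralt library 5 they were 8.25 for AT2G18193, 12.2 for AT5G66150 and 32.8 for AT4G05380. AT4G29200, at 141, then stood above AT5G53240 (128) and AT5G53230 (108). Without wild-type library 6 the ratio was 46.3 for AT2G18193 and 232 for AT5G53240, and for AT1G30170, then with 0 wild-type reads, at least 400 against a floor of 3 reads over the group. Without library 10 it was 1010 (181 to 40000) for AT2G24255, on 1 wild-type read. Without library 12 it was 116 for AT1G30170, 90.1 for AT5G53240, 137 for AT2G24255, 15.6 for AT2G18193 and 34.4 for RLP43.

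At 5 days the same ratios were 1.78 to 5.61 as deposited. With library 7 subtracted from library 4 they were 50.8 (36.3 to 73.6) for AT1G30170, 80.0 (57.7 to 114) for AT5G53230, 53.7 (40.1 to 73.9) for AT5G53240 and 73.7 (51.2 to 110) for AT4G05380. AT4G29200, with 2 wild-type reads left, stood at 544 (150 to 4500), and RLP43 at 209 (89.4 to 645). AT2G24255 had 0 wild-type reads left and was at least 342-fold higher in geralt, against a floor of 3 reads over the group, where the 95% interval of the ratio itself began at 278. AT5G66150 reached 14.2 (11.0 to 18.7), and AT2G18193 only 4.07 (3.85 to 4.30). Leaving library 4 out gave 136 (66.0 to 339) for AT1G30170, 115 (49.3 to 356) for RLP43 and 4.39 (4.07 to 4.73) for AT2G18193.

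**Figure D3:**
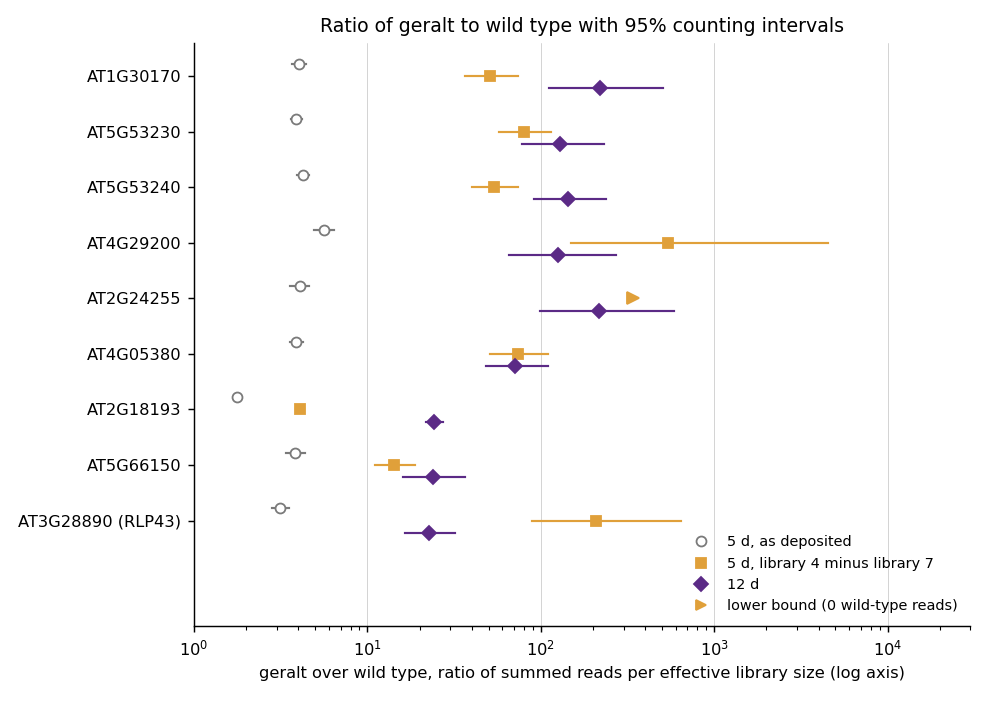
Ratio of summed reads, geralt over wild type, per effective library size (log axis) for each gene, with 95% counting intervals: 5 days as deposited, 5 days with geralt library 7 subtracted from wild-type library 4, and 12 days. As deposited the 5-day ratios are 1.78 to 5.61; after subtraction 8 of them exceed 10, and AT2G24255 is a lower bound.

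In edgeR's fit of all 12 libraries, all 9 genes passed the filter on low counts, which their geralt reads alone could satisfy. At 5 days as deposited 0 of the 9 passed an adjusted p of 0.05, where 0.0331% of the 21122 genes tested were called higher in geralt and 0.26% called in either direction; 8 of the 9 had an unadjusted p under 0.05, and DESeq2 called 1. With library 7 subtracted 8 of the 9 were called higher, where 1.52% of all genes were and 3.44% were called in either direction, and AT2G18193 was not (log2 fold change 2.05, edgeR adjusted p = 0.149). Without library 4, 7 of the 9 were called. At 12 days 6 of the 9 were called higher, where 0.436% of all genes were and 0.8% were called in either direction, and AT4G05380 (adjusted p = 0.0526), AT2G24255 (0.0610) and RLP43 (0.0919) were not. Leaving out any one of libraries 1, 3, 5, 7, 9, 10 and 12 brought the 12-day count to 0. After the subtraction it was 9, where 0.578% of all genes were called higher and 1.01% in either direction. Since these contrasts chose the genes, nothing is read from the counts.

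The authors' deposited table gave all 9 genes an FDR-adjusted p under 0.05 at both ages. Its log2 fold changes ran from 1.29 (AT2G18193) to 3.24 (AT4G29200) at 5 days and from 4.38 (AT2G18193) to 7.57 (AT1G30170) at 12 days. Over all genes, 10.3% of 21538 passed at 5 days and 2.65% of 21462 at 12 days in the authors' deposited table. All 9 genes had each geralt library above each wild-type library at 12 days, as did 10.2% of the genes tested. At 5 days 8 of them did as deposited, where 12.9% of genes did, and 9 after subtraction, where 14.8% did. The genes were chosen by these same reads, so nothing is read from these counts or from the authors' calls either.

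The contrast between ages was not used in choosing the genes, but clear reads in geralt were. A gene that fell to few reads in geralt at either age would thus have been less likely to be picked. Within geralt, age moved none of the 9 genes past the threshold. The log2 fold changes of 12 against 5 days ran from -0.71 (SE 0.91, AT5G53230) through -0.10 (SE 1.05, AT1G30170) to 0.20 (SE 0.79, AT2G18193), each at an edgeR adjusted p of 1.0. edgeR called 0.0% of the 21122 genes in this contrast (974 at an unadjusted p under 0.05, of the 9 genes 0), and DESeq2 called 62. After the subtraction edgeR again called 0.0%, with 937 of 21123 genes at an unadjusted p under 0.05, of the 9 genes 1. That gene was AT5G53230 (-0.71, SE 0.31, unadjusted p = 0.04 in edgeR). As deposited but without geralt library 5, the values were -1.27 for AT2G18193, -1.51 for AT4G05380 and -1.58 for AT5G66150, and none passed (for AT2G18193 edgeR adjusted p = 0.775). In geralt at 5 and 12 days AT4G29200 measured 6.44 ± 1.63 and 6.34 ± 1.3 CPM and AT5G53240 14.5 ± 1.44 and 15.0 ± 2.65 CPM (SD, n = 3 each).

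Whether the difference between genotypes changed with age was tested as an interaction, and 0 of the 9 genes passed (edgeR calls 0.0% of genes, DESeq2 59 genes). At an unadjusted p under 0.05 in edgeR stood 7 of the 9 and 2185 of the 21122 genes as deposited. After the subtraction it was 5 of the 9 and 2504 of 21123. The interactions were 2.17 to 4.93 on the log2 scale as deposited, with adjusted p of 0.438 to 0.616. After the subtraction they ran from -3.95 (AT2G24255) to 2.35 (AT2G18193), with adjusted p of 0.341 to 0.954. The values of AT2G24255, RLP43 and AT4G29200 then rest on 0 to 5 wild-type reads at 5 days. In wild type, 12 against 5 days gave -5.03 to -2.49 as deposited and -2.15 to 4.15 after subtraction. Of the 9 genes 0 passed either way (edgeR calls 0.0% of genes). At an unadjusted p under 0.05 in edgeR stood 8 of the 9 and 4179 of all genes as deposited. After the subtraction it was 6 of the 9 and 4134 of all genes. Both contrasts use the wild-type reads by which the genes were chosen, so nothing is read from these counts.

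Per length of transcript, as TPM deposited by the authors, AT2G18193 was the most abundant of the 9 in geralt at 5 days, at 38.9 ± 20.4 TPM (SD, n = 3). AT5G53230 followed at 27.1 ± 4.70 TPM and AT5G53240 at 21.2 ± 1.2 TPM, and libraries of these neighbours in the order overlapped. AT1G30170 lay below them at 13.7 ± 3.2 TPM, and AT4G05380 (9.47 ± 0.714), AT4G29200 (8.55 ± 1.74), AT2G24255 (7.13 ± 1.4) and RLP43 (4.57 ± 1.34 TPM) overlapped from one to the next. AT5G66150 was lowest, at 2.80 ± 0.240 TPM. At 12 days AT2G18193 had the highest mean, 48.1 ± 58.2 TPM, through library 5 at 115 TPM, and AT5G53240 the next, 21.8 ± 6.63 TPM. In libraries 9 and 11 AT2G18193 measured 14.4 and 14.6 TPM, below AT5G53240 at 16.9 and 19.0 TPM. AT5G66150 again had the lowest mean, 1.85 ± 1.80 TPM (SD, n = 3 each), and neighbours in the 12-day order overlapped, apart from AT1G30170 and AT4G29200.

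The classes of reads differed between the genes in geralt. Reads across exon junctions made up 94.7% of 1545 reads of AT5G66150 (exact 95% interval 93.5 to 95.8), a gene of many short exons. They made up 16.2% (15.0 to 17.5) of 3485 reads of AT1G30170, 8.39% of AT2G18193 and 1.89% of AT2G24255, and AT4G29200, whose first exon has 16 bases, had 2 such reads of 2210. Intron reads made up 31.6% (30.2 to 33.1) of 3985 reads of AT4G05380, with 22.8% to 42.5% in single geralt libraries. In the other genes intron reads made up 0.0559% to 5.52%. The class also held 1.97% of the reads of AT5G53230 and 0.687% of those of AT5G53240, which have 1 exon, so it is not made of introns alone.

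Limits of under 0.5 CPM in each of 5 wild-type libraries, library 4 left out, and over 2 CPM in each of the 6 geralt libraries were met by 7 of the 27655 genes (0.0253%). All 7 were among the 9 genes. Those were picked for such counts, and the limits had been used on these data before, so nothing is read from that overlap. AT2G18193, with up to 12.3 CPM in wild type, and AT5G66150, with up to 0.923 CPM in wild type and down to 1.76 CPM in geralt, lay outside. Just inside were RLP43, at 3.37 CPM or more in geralt and 0.309 CPM or less in wild type, and AT4G05380, at 4.46 CPM or more and 0.285 CPM or less. Among the genes just outside were HDG4 (AT4G17710), a homeodomain factor, with at least 1.89 CPM in geralt and at most 0.0963 CPM in wild type, and AT5G55270, with at least 3.45 and at most 0.578 CPM. AT1G05490, with at least 1.81 and at most 0.389 CPM, and AT5G07610, with at least 2.34 and at most 0.654 CPM, also lay near the limits. By blastp score AT5G55270 is the closest relative of both AT5G53230 (62.4% identical) and AT5G53240 (63.8%). With library 4 counted as well, 0 genes met the limits. With library 4 left out, 10 genes met a wild-type limit of 1 CPM and 13 a geralt limit of 1 CPM. In each case 7 of the 9 genes were among them.

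**Figure D4:**
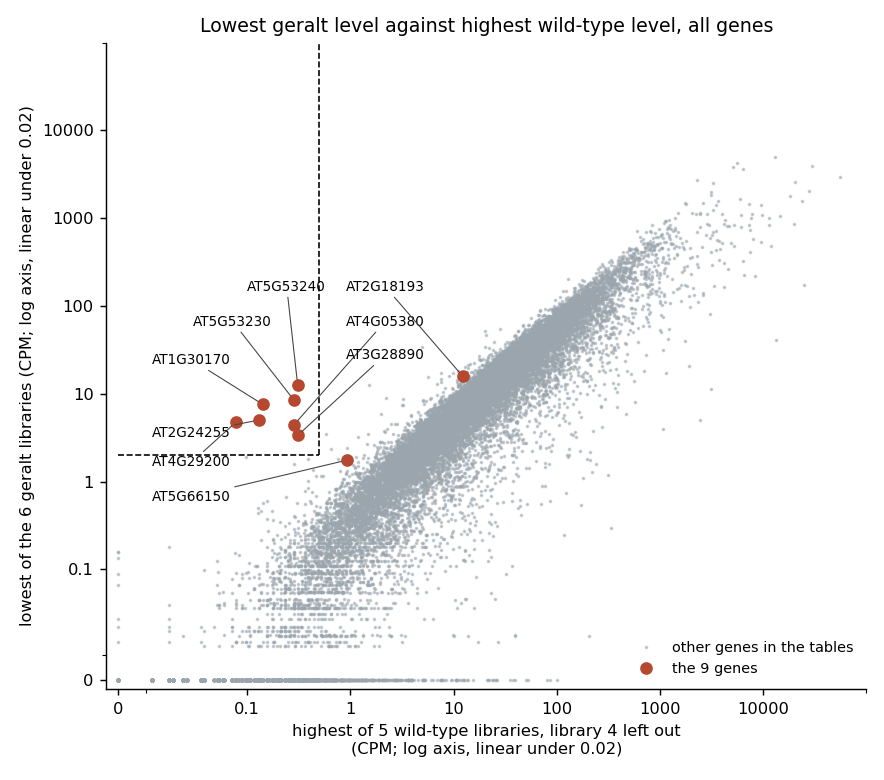
Lowest CPM over the 6 geralt libraries against highest CPM over 5 wild-type libraries (library 4 left out) for all 27655 genes, on log axes that are linear under 0.02. The dashed lines mark 2 and 0.5 CPM; the 7 genes within them are 7 of the 9, and AT5G66150 and AT2G18193 lie outside.

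Genes whose log2 CPM followed the mean of the 9 genes most closely over the 12 libraries were AT5G60250 (Pearson r 0.987), AT1G17960 (0.983), AT2G07621 (0.980), HDG4 (0.978), AT4G18330 (0.976), NAC053 (0.975), HAC2 (0.973) and ACC2 (0.970). The 9 genes themselves stood at 0.869 (AT2G18193) to 0.99 (AT5G53240). Each of the 9 is part of that mean, which raises its own r, so these values are not comparable with those of the other genes. All libraries share their genotype contrast, and libraries 4 and 7 have nested counts, so r describes likeness and no more. AT5G60250 measured 53.1 CPM in geralt and 11.2 CPM in wild type at 5 days, and 46.3 CPM in geralt and 2.53 CPM in wild type at 12 days. Its 24.7 CPM in library 4 were 4.73 CPM after the subtraction, near the 4.95 and 4.04 CPM of wild-type libraries 2 and 8. ACC2, a plastid acetyl-CoA carboxylase, averaged 111 CPM in geralt and 32.2 CPM in wild type at 5 days, and 102 CPM in geralt and 11.5 CPM in wild type at 12 days. Of its 65.7 CPM in library 4, 13.7 CPM were left after the subtraction, against 20.3 and 10.6 CPM in libraries 2 and 8. AT2G07621 and AT4G18330 never exceeded 0.312 and 0.595 CPM, and after the subtraction the r of AT2G07621 was 0.850 and that of NAC053 0.936.

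The genes lying next to the 9 on the chromosome were set beside them. Of 32 genes within 2 places on either side, 26 were tested. edgeR called 0 of them at 5 days (0 higher, 0 lower; median log2 fold change 0.25, all genes 0.01), where 0.26% of all genes were called, and 1 at 12 days (median 0.08, all genes -0.02), where 0.8% were. That gene was AT2G18190, the tandem copy of AT2G18193 with 81.4% identical protein, at 2.80, 0.2 and 0.258 CPM in geralt, against 0.0177, 0 and 0 CPM in wild type (log2 fold change 7.15, SE 1.49, edgeR adjusted p = 0.0489). Its highest value, like that of AT2G18193, was in geralt library 5, and the call rests on under 3 CPM.

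AT1G30160, a DUF295 gene on the opposite strand of AT1G30170, overlaps its end by 57 bases and encodes its closest relative (49.9% identical). It measured 14.2, 8.33 and 11.7 CPM in geralt at 5 days, against 0.359, 5.11 and 0.905 CPM in wild-type libraries 2, 4 and 8, and each geralt library lay above each wild-type one. At 12 days it measured 10.3, 11.8 and 10.9 CPM in geralt, against 0.584, 7.22 and 2.37 CPM in wild type. After the subtraction it was called higher at 5 days (log2 fold change 4.33, SE 0.72, edgeR adjusted p = 0.0101), as was BHLH66 beside AT2G24255 (1.47, adjusted p = 0.0328). The sources used here do not say whether reads were counted by strand, so reads in the overlap cannot be assigned to either gene.

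**Figure D5:**
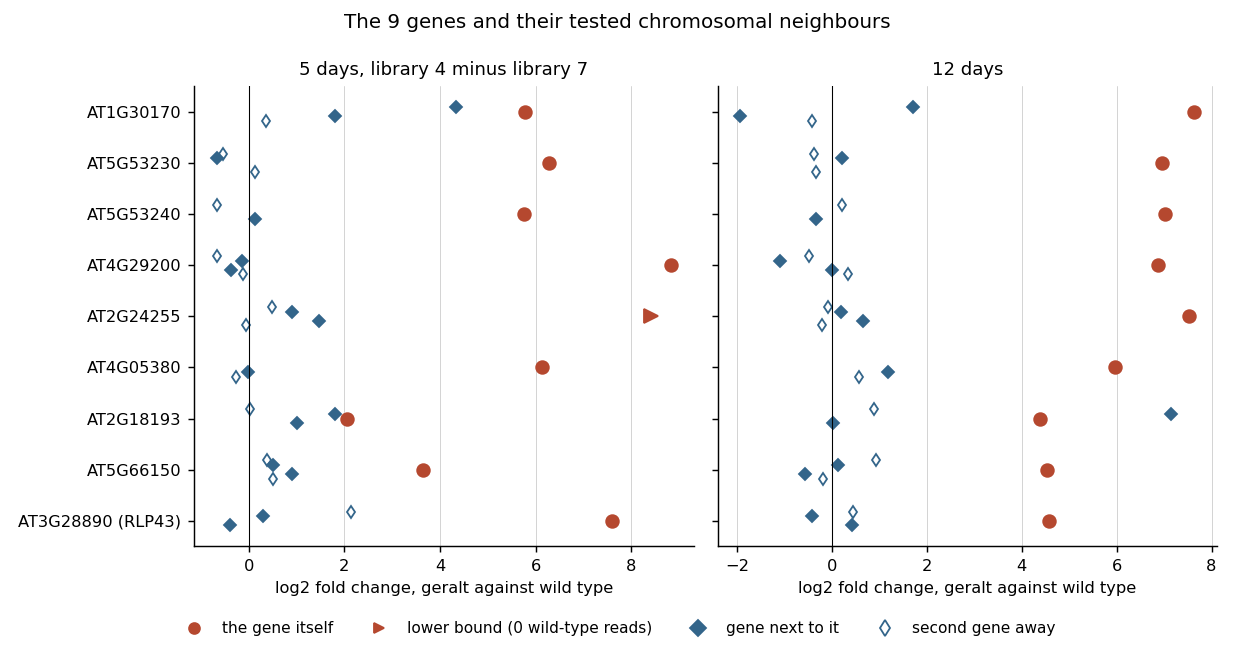
Log2 fold change of geralt against wild type for each of the 9 genes and its tested neighbours, at 5 days with geralt library 7 subtracted from wild-type library 4 and at 12 days. Farthest from 0 among the neighbours lie AT1G30160 (4.33) at 5 days and AT2G18190 (7.15) at 12 days. AT2G24255 at 5 days is drawn at its bound of 342-fold, not at a fitted value.

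Relatives of the 9 genes were found by protein similarity. Calls among them stand beside 0.26% of all genes called at 5 days and 0.8% at 12 days as deposited, and 3.44% and 1.01% after the subtraction. Among 30 relatives of the DUF295 genes 16 were tested, and edgeR called 0 at 5 days (median log2 fold change 0.50) and 0 at 12 days (median -0.01); after the subtraction it called AT5G55270, AT4G13680 and AT1G30160 higher at 5 days and the first 2 of these at 12 days. AT5G55270 measured 14.1 CPM in geralt and 1.74 CPM in wild type at 5 days, and 6.46 CPM in geralt and 0.228 CPM in wild type at 12 days (edgeR adjusted p = 0.00113 and 0.00509 after subtraction, 0.162 and 0.0525 as deposited). Of 22 relatives of the ATPase genes 15 were tested, with medians of 0.83 and 1.31, and edgeR called 0 at 5 days and AT2G18190 at 12 days. After the subtraction it also called OM66 (AT3G50930) at 5 days, at 52.7 CPM in geralt and 20.0 CPM in wild type as deposited (log2 fold change 2.39, edgeR adjusted p = 0.0199). Of 96 relatives of RLP43 90 were tested; 0 were called at 5 days and at 12 days 1 was, RGI3, lower at 51.8 CPM in geralt and 196 CPM in wild type (log2 fold change -1.92, edgeR adjusted p = 0.0403). After the subtraction 4 relatives were higher and 1 lower at 5 days, led by AtRLP42 (2.30, edgeR adjusted p = 0.00296) and AtRLP27 (1.99, 0.0117), with ATRLP40 the lower one (-2.94, 0.0332). Both relatives of AT5G66150 were tested and neither passed.

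Genes of the mitochondrial dysfunction response, to which OM66 and the motif above belong, were counted from a list of 19. At 5 days edgeR called 0 of the 19 (median log2 fold change 1.03, all genes 0.01), and after the subtraction OM66, ANAC013, AT4G37370 and AT5G43450, all higher. Over all genes, 1.52% were called higher after the subtraction and 3.44% in either direction. At 12 days 4 of 19 were higher and 0 lower (median 1.75), where 0.8% of all genes were called. These were UGT74E2 (log2 fold change 2.71, SE 0.48), UPOX (AT2G21640; 3.31, SE 0.64), DTX3 (3.32, SE 0.65) and ANAC013 (1.95, SE 0.39), at edgeR adjusted p of 0.0352 to 0.0450. ANAC013 is a factor that binds the motif, and it measured 13.2 CPM in geralt and 3.41 CPM in wild type at 12 days. Geralt library 5 was the highest of the 12-day libraries in all 4 called genes. It stood at 103 CPM in UPOX, against 37.1 and 36.8 CPM in geralt libraries 9 and 11, and at 21.9 against 8.85 and 8.85 CPM in ANAC013. In DTX3 it stood at 73.5 against 21.7 and 22.9 CPM, and in UGT74E2 at 39.2 against 8.47 and 22.2 CPM. Library 5 was also the highest of the 12-day libraries in all of the 9 genes but AT4G29200 and RLP43.

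Transcripts under known epigenetic silencing were looked at beside them. FWA had too few reads for a test, at 0.148 CPM in geralt and 0.0358 CPM in wild type at 5 days, and SDC was at 0 CPM in geralt and 0.489 CPM in wild type. QQS, an orphan gene whose silencing varies among plants, measured 11.2, 20.8 and 13.3 CPM in geralt at 5 days, against 0.487, 5.79 and 0.462 CPM in wild-type libraries 2, 4 and 8. The 12-day levels were 11.7, 8.91 and 12.7 CPM in geralt, against 0.424, 2.20 and 0.964 CPM in wild type. It did not pass as deposited (edgeR adjusted p = 0.173 and 0.0915) and was called higher after subtraction (0.000712 and 0.0101). Of 12 genes of the silencing machinery, among them MET1, DDM1, CMT3 and NRPD1, edgeR called 0 at either age, as deposited or after subtraction, with median log2 fold changes of 0.05 and 0.13.

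Markers of organs were followed as sums of CPM per library. The 4 leaf markers summed to 12600 to 19900 CPM in geralt and 26800 to 57600 CPM in wild type at 5 days, and to 7940 to 38800 CPM in geralt and 65500 to 99300 CPM in wild type at 12 days, where edgeR called 0 of them as deposited and LHCB3 (AT5G54270) lower at 5 days after the subtraction. At 12 days the lowest sum was that of geralt library 5, where LHCB3 measured 829 CPM against 3380 and 4330 CPM in geralt libraries 9 and 11. Among the 12-day libraries, all of the 9 genes but AT4G29200 and RLP43 were highest in the same library. The 4 root markers summed to 1600 to 2880 CPM in geralt and 1390 to 2720 CPM in wild type at 5 days, and to 1810 to 3230 and 620 to 2690 CPM at 12 days, and those groups overlapped. Flower and pollen markers summed to 6.96 to 13.0 CPM in geralt and 14.8 to 24.2 CPM in wild type at 5 days, and to 10.7 to 10.9 CPM in geralt and 5.13 to 7.45 CPM in wild type at 12 days, with PME5 and PPME1 at 0 in every library. After the subtraction SEP3 (AT1G24260) was called lower at 5 days (log2 fold change -1.18, edgeR adjusted p = 0.0422). Seed markers summed to at most 3.67 CPM in geralt and 10.9 CPM in wild type. The part of leaf content in the levels of the 9 genes was not tested, and in whole seedlings a change in cells and a change in RNA per cell cannot be told apart.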

How the data were processed

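Whole-seedling polyadenylated RNA was measured in 12 libraries, grouped by their titles. Per the file headers, the authors deposited counts of reads per gene (total, unique, exon, exon-exon and intron) and TPM; the genome build was TAIR10, per the submitters' processing notes, with aligner and counter not given in the sources used here. Per the file headers, the authors' comparison tables hold log2 fold changes and adjusted p-values. The genes, lists and naming rule were chosen with earlier results of these data known. Genes named are the 9, PHR2, the 8 most alike, up to 4 per list with the smallest p, chromosomal neighbours, closest relatives, and genes near the CPM limits.

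Total gene reads were tested with edgeR 4.0.16 (TMM, filterByExpr by group, quasi-likelihood, 8 residual degrees of freedom, Benjamini-Hochberg over 21122 genes). DESeq2 1.42.0 was an alternative. The test was run on simulated counts of independent libraries, in which only genes with a mean level over 2 CPM were changed. That run does not cover genes near 0 in wild type or the nested counts of libraries 4 and 7. Intervals of reads are exact Poisson, shares exact binomial (Clopper-Pearson) and ratios conditional binomial, at 95%; they treat each read as independent, so only counting error is covered, and whether a pair counts as 1 or 2 reads is not given. The labels speak of biological replicates but not of how plants were pooled, so p-values measure the spread between these libraries. Sequences came from RefSeq TAIR10.1, in which 27444 of 27445 chromosome genes had the coordinates of the files. Relatives were found with blastp (BLAST 2.17.0) at 30% identity over 50% of the protein and an E-value of 1e-20, in place of the protein table foreseen. The subtraction of library 7 from library 4, and the fit without both, were added after the data were seen. Negative differences were set to 0, and intervals after the subtraction take each difference as a plain count.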

Additional observations from a re-analysis of the deposited data

How the results depend on the processing

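The count of genes called at 5 days, 55, was 870 with DESeq2, 547 without wild-type library 4 and geralt library 5, 960 when only the 5-day groups were fitted and 727 with library 7 subtracted; leaving out 1 library gave 4 to 314. Of the 9 genes 0 were called as deposited, 1 with DESeq2, 8 without libraries 4 and 5, 8 with the subtraction, 7 without libraries 4 and 7, and 0 to 7 leaving out 1 library. At 12 days the count of 169 was 1350, 62 and 7 under the first 3 alternatives and 51 without libraries 4 and 7; leaving out 1 library gave 4 to 504, and 0 to 9 of the 9 genes. With only the 12-day groups 3 of the 9 were called. The counts of 0 for age in geralt and for the interaction were 62 and 59 with DESeq2 and 5 for age without libraries 4 and 5; leaving out 1 library gave 0 to 8 and 0 to 2. PHR2 ran from -3.02 to -2.33 at 5 days and from -2.85 to -2.69 at 12 days leaving out 1 library, and its adjusted p then reached 0.121 and 0.0601. The median ratio of summed reads over the 9 genes was 125 at 12 days (90.1 to 128 leaving out 1 library) and 3.90 at 5 days, against 79.4 without library 4 and 73.7 with the subtraction (3.02 to 79.4 leaving out 1 library). The median level in library 4, 42.2% of the geralt mean, was 1.25% after subtraction and 39.4 to 46.1% leaving out 1 geralt library. The limits on CPM were met by 3 genes at 0.25 CPM in wild type, 13 at 1 CPM in geralt and 0 with library 4 used. The change with age in geralt, called in none of the 9, turned sign leaving out single libraries in AT1G30170 (-0.37 to 0.10), AT5G53240 (-0.11 to 0.15), AT4G29200 (-0.20 to 0.16), AT2G24255 (-0.07 to 0.36) and AT2G18193 (-1.27 to 0.61). Without libraries 4 and 5 it was -0.11 in AT5G53240, 0.14 in AT4G29200, -0.07 in AT2G24255 and -1.27 in AT2G18193, and without libraries 4 and 7 it was -0.02 in AT5G53240. The cause of these shifts was not tested. Size factors, the filter, unique or exon reads and leaving out organellar genes moved no count past 1.5 times and turned no direction, but single genes crossed the threshold: at 12 days 8 of the 9 were called with no filter and 5 with organellar genes left out, against 6. No paired analysis was possible because no replicate number is shared between groups. Wild-type counts of 0 to 3 reads leave the ratios of AT2G24255 and AT4G29200 at 5 days with open or wide intervals.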

Other observations

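The mirror image of the limits used above, under 0.5 CPM in every geralt library and over 2 CPM in 5 wild-type libraries, was met by AT3G55240 and AT4G13575 alone among the 27655 genes. AT4G13575 measured 0, 0.0465 and 0.0184 CPM in geralt at 5 days, against 15.4, 14.5 and 33.3 CPM in wild-type libraries 2, 4 and 8, and at 12 days at most 0.159 CPM in geralt, against 28.7 to 39.7 CPM in wild type. AT3G55240 measured at most 0.186 CPM in geralt and 2.72 to 39.3 CPM in wild type over both ages. In both genes library 4 was the lowest wild-type library at 5 days, and subtracting library 7 brought it to 25.6 CPM for AT4G13575 and 18.4 CPM for AT3G55240.

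Over all genes, the subtraction of library 7 from library 4 raised the 5-day calls of edgeR to 322 higher and 405 lower in geralt, against 7 and 48 with library 4 as deposited. Taking the reads of a geralt library out of a wild-type library moves the latter away from geralt by construction, so nothing is read from the rise. In either direction edgeR called 169 genes at 5 days without library 4, and 44 without libraries 4 and 7.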
